A study of Mus musculus with 16 samples.

Results

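The livers of Ncoa5+/-Tip30+/- mice, heterozygous for deletions of both genes, were compared here with the livers of Tip30+/- mice, which carry 2 intact copies of Ncoa5. Both groups lack 1 copy of Tip30, so that their labelled genotypes differ by 1 Ncoa5 copy on a Tip30 heterozygous background. Any other difference between these groups of mice cannot be told apart from genotype. The genes described are those that averaged 10 normalized counts or more across these 8 livers, 15307 of the 30199 genes in the table. The lowest mean inside this limit was 10.005 and the highest outside it was 9.992. The series holds 16 libraries, 1 per mouse and 4 per genotype, from female mice at 5 months of age. The other genotypes were Ncoa5+/- and wild type, and they serve below as a separate pair of groups whose labelled genotypes differ in Ncoa5 alone. Each library came from a piece of liver described as mainly hepatocytes, and the strain was not given in the sources used.

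Ncoa5 encodes a coregulator that binds nuclear receptors such as the oestrogen receptors and can raise or lower the transcription of their targets. Tip30 is the common name of Htatip2, an oxidoreductase studied as a tumour suppressor. The tumour suppressor p53 is a transcription factor that is held low by Mdm2 and stabilised when DNA is damaged or a cell is under stress. Its targets stop the cell cycle, favour apoptosis and repair DNA, and several of them, Mdm2 included, feed back to limit p53. In hepatocytes, which rarely divide, Cdkn1a is a widely used readout of that pathway.

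Reads assigned to genes came to 24740706 to 31987259 in the Ncoa5+/-Tip30+/- libraries and to 30574997 to 35978055 in the Tip30+/- libraries. Between 23130 and 24142 genes had a read in the Ncoa5+/-Tip30+/- libraries, against 21686 to 22974 in the Tip30+/- libraries, so the groups did not overlap in this count. Mitochondrial genes took 3.60% to 5.50% of reads in Ncoa5+/-Tip30+/- livers and 4.96% to 5.80% in Tip30+/- livers. No hepatocyte marker was at 0 in all 8 livers, and the summed level of the 10 markers was 2348232 to 2956539 normalized counts in Ncoa5+/-Tip30+/- livers and 2972445 to 3517462 in Tip30+/- livers. The part of these differences in the results below was not tested. On the first principal component of the 8 livers, with 37.4% of the variance, the Ncoa5+/-Tip30+/- livers lay at 0.186 to 0.580 and the Tip30+/- livers at -0.438 to -0.158. Of the 16 livers 4 stood apart by a low level of Zhx2, a transcriptional repressor, at 8.77 to 26.3 normalized counts. These were Ncoa5+/- 1 and 4 and wild type 1 and 2. None of the 8 livers compared was among them, with 167 to 420 in Ncoa5+/-Tip30+/- livers and 271 to 431 in Tip30+/- livers. They enter only the spread of the test and the comparison of Ncoa5+/- with wild type, both of which are also given without them.

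The reads did not separate the genotypes at Ncoa5 itself. Ncoa5 (ENSMUSG00000039804) had 391, 369, 382 and 424 normalized counts in Ncoa5+/-Tip30+/- livers 1 to 4 and 392, 410, 382 and 450 in Tip30+/- livers 1 to 4. The groups overlapped, and the log2 change was -0.06 ± 0.10 (SE; 2-sided exact permutation p = 0.4 over 70 arrangements of the 8 mice). This sign turned to 0.03 under upper-quartile scaling. The deposited values cover the whole gene, so reads from a deleted allele cannot be told from reads of an intact one, and the gene does not check the labels here. Htatip2, of which both groups carry 1 intact copy, had 837, 1088, 991 and 991 normalized counts in Ncoa5+/-Tip30+/- livers and 685, 710, 986 and 741 in Tip30+/- livers, a log2 difference of 0.33 ± 0.13 (2-sided exact permutation p = 0.0571). Hcn3, an ion channel named in the title of the series, had 1275, 1754, 2134 and 1990 normalized counts in Ncoa5+/-Tip30+/- livers and 1155, 1121, 1224 and 1047 in Tip30+/- livers. All 4 Ncoa5+/-Tip30+/- livers lay above all 4 Tip30+/- livers, and the exact p was 0.0286, the smallest that 70 arrangements allow. Across all genes Hcn3 did not pass, with a log2 difference of 0.63 (95% interval 0.14 to 1.12, adjusted p = 0.124). It passed with the 2 groups fitted alone (adjusted p = 0.0409) and by DESeq2 (adjusted p = 0.0498), and the adjusted p reached 0.272 at most, without Ncoa5+/-Tip30+/- 2. Its exons share 711 bases, 17.1% of their length, with Pklr on the opposite strand, the liver pyruvate kinase. Pklr averaged 9741 ± 1398 normalized counts in Ncoa5+/-Tip30+/- livers and 12026 ± 1654 in Tip30+/- livers (SD, n = 4 each), with a log2 difference of -0.30 and an adjusted p of 0.371.

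Across the liver, 462 genes passed the test between Ncoa5+/-Tip30+/- and Tip30+/- mice at an adjusted p below 0.05, which is 3.02% of the genes tested. Of these, 242 rose (1.58%) and 220 fell (1.44%), so that 52.4% were higher. The 2 directions differed in size and in level. Among the genes that rose, 144 changed more than 2-fold and 23 more than 8-fold, while 13 of those that fell changed more than 2-fold and 0 more than 8-fold. The median log2 change was 1.16 for genes that rose, -0.56 for genes that fell and -0.02 for all genes tested. Genes that rose had a median level of 153 normalized counts over the 8 livers, those that fell had 1375, and all genes tested had 319. Protein-coding genes made up 78.1% of those that rose and 93.6% of those that fell, against 84.3% of all genes tested. In 449 of the 462 genes the groups did not overlap, a pattern that 16.1% of all genes tested showed.

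**Figure D1:**
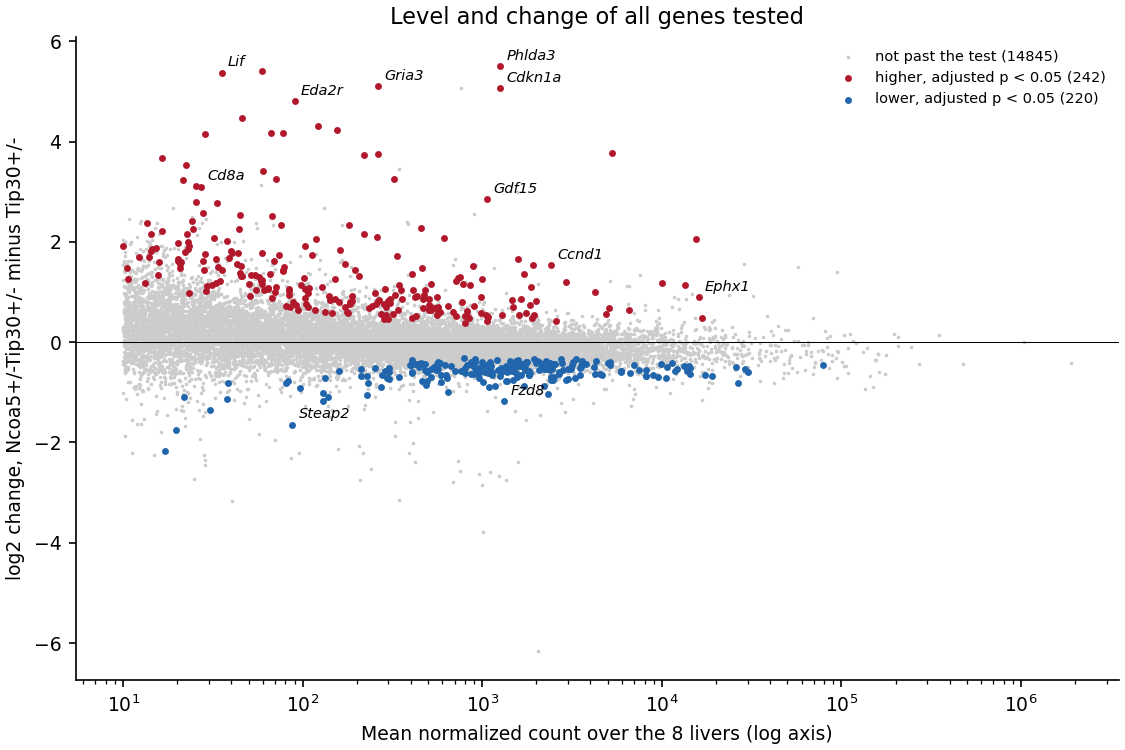
Each point is 1 of the 15307 genes tested, with its mean normalized count over the 8 livers on a log axis and its log2 change, Ncoa5+/-Tip30+/- minus Tip30+/-. The 242 genes that rose (red) reach a log2 change of 5.51 at Phlda3, and the 220 that fell (blue) lie mostly between 0 and -1 at higher levels.

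The number of genes that passed depended on single mice and on the scaling. Left out singly, Ncoa5+/-Tip30+/- 1, 2, 3 and 4 gave 296, 107, 164 and 761 genes, and Tip30+/- 1, 2, 3 and 4 gave 188, 131, 178 and 161. The share that was higher was 62.9% under TMM scaling, 74.4% under upper-quartile scaling and 38.0% with the range of mouse tags as a covariate.

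Targets of p53 led the genes that rose. Their lists were chosen with earlier results of these data known, so the counts of members are descriptions. Of 54 targets on 3 lists 52 were tested, 24 rose and 1 fell, beside 1.58% and 1.44% of all genes, and their median log2 change was 0.41 beside -0.02. In 28 of the 52 the Ncoa5+/-Tip30+/- livers all lay above the Tip30+/- livers, which 7.11% of all genes tested did, and in 2 they all lay below, beside 9.02%. The strongest members on the list of arrest and feedback were Phlda3 and Cdkn1a. Phlda3, which restrains Akt signalling, had 1533, 3390, 4114 and 880 normalized counts in Ncoa5+/-Tip30+/- livers and 48.6, 45.2, 54.5 and 33.8 in Tip30+/- livers. Its log2 change was 5.51 ± 0.47, a 45.4-fold rise (adjusted p = 3.33e-05). Cdkn1a, the p21 inhibitor of cyclin-dependent kinases, had 1232, 2666, 4893 and 1006 normalized counts in Ncoa5+/-Tip30+/- livers, against 69.1, 70.3, 49.6 and 49.2 in Tip30+/- livers. It rose 33.6-fold (log2 change 5.07 ± 0.43, adjusted p = 3.33e-05). For both genes the lowest Ncoa5+/-Tip30+/- liver, the fourth, stood far above the highest Tip30+/- liver.

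The windows around the transcription start of the 4 p53 list members with the largest rise are shown because those genes moved together. They are RefSeq sequences of GRCm38.p6, from 250 bases before to 50 bases after the start, read in the direction of the gene, and capitals mark a match to the consensus of a p53 decamer found on either strand. The windows are chr1:135765835-135766134 on the plus strand for Phlda3, chr11:4257318-4257617 on the plus strand for Lif, chr17:29090729-29091028 on the plus strand for Cdkn1a and chrX:97377160-97377459 on the minus strand for Eda2r.
Phlda3: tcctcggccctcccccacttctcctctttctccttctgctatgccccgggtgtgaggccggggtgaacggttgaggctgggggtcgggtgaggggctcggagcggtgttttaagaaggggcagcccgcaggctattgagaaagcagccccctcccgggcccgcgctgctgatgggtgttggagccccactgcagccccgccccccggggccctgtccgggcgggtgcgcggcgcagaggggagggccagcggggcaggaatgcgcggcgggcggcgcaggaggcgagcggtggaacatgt
Lif: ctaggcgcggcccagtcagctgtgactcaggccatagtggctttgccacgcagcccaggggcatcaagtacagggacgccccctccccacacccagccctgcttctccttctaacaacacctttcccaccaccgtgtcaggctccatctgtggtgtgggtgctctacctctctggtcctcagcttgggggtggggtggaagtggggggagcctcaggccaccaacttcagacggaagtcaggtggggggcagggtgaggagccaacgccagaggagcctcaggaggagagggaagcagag
Cdkn1a: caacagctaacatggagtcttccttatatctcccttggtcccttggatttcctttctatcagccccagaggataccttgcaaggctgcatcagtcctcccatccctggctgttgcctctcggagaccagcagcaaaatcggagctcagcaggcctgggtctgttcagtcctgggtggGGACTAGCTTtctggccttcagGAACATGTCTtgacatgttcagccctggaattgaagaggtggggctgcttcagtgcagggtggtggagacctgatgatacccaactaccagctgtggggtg
Eda2r: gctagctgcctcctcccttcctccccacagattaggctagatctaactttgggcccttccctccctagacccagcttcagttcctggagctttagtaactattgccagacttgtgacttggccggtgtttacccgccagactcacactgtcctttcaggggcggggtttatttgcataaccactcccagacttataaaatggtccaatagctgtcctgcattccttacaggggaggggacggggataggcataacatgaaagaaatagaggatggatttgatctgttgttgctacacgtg
The Cdkn1a window held 2 decamers, GGACTAGCTT and GAACATGTCT, and the other 3 windows held 0. A decamer, 10 bases long and matched to the consensus without a mismatch, was in 14.9% of 161 genes that rose and had a window, in 7.55% of 159 that fell and in 8.31% of 10638 genes tested. Among the p53 list members that rose it was in 9 of 21, Bax, Aen, Rps27l, Mdm2, Ccng1, Siva1, Polk, Gtse1 and Cdkn1a. These 9 are part of the 24 genes that make up the 14.9%. Where a gene had more than 1 window, the first listed is shown, and the shares count a match in any of its windows. A match describes the letters of its window only, and sites farther away lie outside it.

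The other 9 members that rose on the list of arrest and feedback, of which 11 of 18 tested rose with a list median of 1.30, spanned brakes on the cycle and brakes on p53. Plk2, a stress-responsive polo-like kinase, had 712, 1365, 1361 and 539 normalized counts in Ncoa5+/-Tip30+/- livers, against 288, 184, 229 and 185 in Tip30+/- livers (log2 change 2.07 ± 0.28). Gtse1, a G2 and S phase protein that binds p53, had 88.1, 163, 166 and 91.8 in Ncoa5+/-Tip30+/- livers and 12.8, 31.1, 28.2 and 25.6 in Tip30+/- livers (2.34 ± 0.35). Psrc1, a microtubule-associated protein, was low in every liver, with 14.3, 44.2, 95.3 and 15.5 in Ncoa5+/-Tip30+/- livers and 3.41, 0, 5.83 and 1.02 in Tip30+/- livers. In none of these genes did the groups overlap. Ccng1 (cyclin G1) had a log2 change of 1.66 ± 0.20, Btg2 of 1.47 ± 0.28, Trp53inp1 of 1.37 ± 0.23, Zmat3 of 1.36 ± 0.20, Mdm2 of 1.25 ± 0.18 and Sesn2 of 1.16 ± 0.25. Mdm2, the ubiquitin ligase that degrades p53, stood at 1044, 1822, 1697 and 1068 normalized counts in Ncoa5+/-Tip30+/- livers and at 564, 625, 543 and 562 in Tip30+/- livers. Members of the same list that did not pass included Ppm1d (0.11), Plk3 (0.10), Gadd45a (0.31), Cdkn1b (-0.18) and Sesn1 (-0.46, adjusted p = 0.0902).

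Among targets of apoptosis and death receptors 6 of 18 tested rose and 1 fell, with a median of 0.41. Eda2r, a receptor of the tumour necrosis factor family, had 58.4, 255, 241 and 147 normalized counts in Ncoa5+/-Tip30+/- livers and 4.26, 2.01, 6.81 and 6.14 in Tip30+/- livers, a 28.0-fold rise (log2 change 4.81 ± 0.46, adjusted p = 3.33e-05). Tnfrsf10b, the mouse TRAIL receptor, had 89.3, 208, 227 and 73.2 in Ncoa5+/-Tip30+/- livers, against 3.41, 10.04, 7.78 and 6.14 in Tip30+/- livers (4.17 ± 0.44, adjusted p = 4.17e-05). Both receptors were near the floor of detection in Tip30+/- livers and well above it in all 4 Ncoa5+/-Tip30+/- livers. Bax, which permeabilises mitochondria, had 1035, 1709, 1498 and 1014 normalized counts in Ncoa5+/-Tip30+/- livers and 501, 452, 371 and 472 in Tip30+/- livers (1.52 ± 0.16). Its exons share 12.2% of their length with Gm45808 on the same strand. Aen, a nuclease of apoptosis, rose by 1.55 ± 0.17 on the log2 scale, Apaf1, the scaffold of the apoptosome, by 0.99 ± 0.16 and Siva1 by 0.97 ± 0.25. Perp, a desmosomal membrane protein, fell, with 2625, 2467, 2030 and 2721 normalized counts in Ncoa5+/-Tip30+/- livers and 3475, 3674, 3606 and 3488 in Tip30+/- livers (-0.54 ± 0.14, adjusted p = 0.0424). Puma (Bbc3) at -0.08, Noxa (Pmaip1) at 0.42 and Fas at 0.41 (adjusted p = 0.0968) did not pass.

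Of targets of DNA repair, metabolism and secretion 7 of 16 tested rose, with a median of 0.28. Lif, a cytokine of the interleukin 6 family, was listed at 25.0, 112, 130 and 14.4 normalized counts in Ncoa5+/-Tip30+/- livers and at 0, 0, 0 and 1.02 in Tip30+/- livers. This came to 304 reads in the Ncoa5+/-Tip30+/- group and 1 read in the Tip30+/- group, a ratio of 315 with an exact interval of 56.1 to 12486 that covers counting error only. In the test across all genes the log2 change of Lif was 5.37 ± 0.72, a 41.4-fold rise (adjusted p = 0.000706). Gdf15, a circulating stress hormone, had 1552, 2406, 2852 and 742 normalized counts in Ncoa5+/-Tip30+/- livers, against 207, 181, 295 and 257 in Tip30+/- livers, a 7.24-fold rise (log2 change 2.86 ± 0.42, adjusted p = 0.00377). Neither gene overlapped between the groups. Ddias, a suppressor of apoptosis after DNA damage, rose 9.55-fold, with 120, 149, 166 and 80.4 in Ncoa5+/-Tip30+/- livers and 9.38, 11.05, 15.6 and 13.3 in Tip30+/- livers. Polk, a DNA polymerase that bypasses lesions, rose 2.93-fold (log2 change 1.55 ± 0.19). Ephx1, Rps27l and Ercc5 rose by 0.90 ± 0.19, 0.67 ± 0.15 and 0.65 ± 0.16 on the log2 scale. The metabolic and repair targets Tigar (-0.13), Gls2 (-0.34), Xpc (-0.31), Ddb2 (0.38) and Rrm2b (-0.03) did not pass.

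The message of p53 itself did not pass. Trp53 had 600, 641, 593 and 530 normalized counts in Ncoa5+/-Tip30+/- livers and 614, 572, 506 and 627 in Tip30+/- livers (log2 change 0.03 ± 0.09, adjusted p = 0.880). Of 14 tested regulators of p53 1 rose, Mdm4, the partner of Mdm2, with 1140, 1237, 1336 and 1366 in Ncoa5+/-Tip30+/- livers and 926, 1018, 779 and 850 in Tip30+/- livers (0.51 ± 0.12, adjusted p = 0.0342), and the list median was 0.04. The kinases that sense DNA damage, Atm (-0.55), Atr (-0.07), Chek1 (0.88) and Chek2 (0.39), did not pass. On the list of DNA damage sensing and repair 1 of 19 tested rose, with a median of 0.04. That gene was Mgmt, which removes alkyl groups from guanine, with 1090, 1548, 1285 and 831 normalized counts in Ncoa5+/-Tip30+/- livers, against 480, 527, 561 and 536 in Tip30+/- livers (1.14 ± 0.17, adjusted p = 0.00179).

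**Figure D2:**
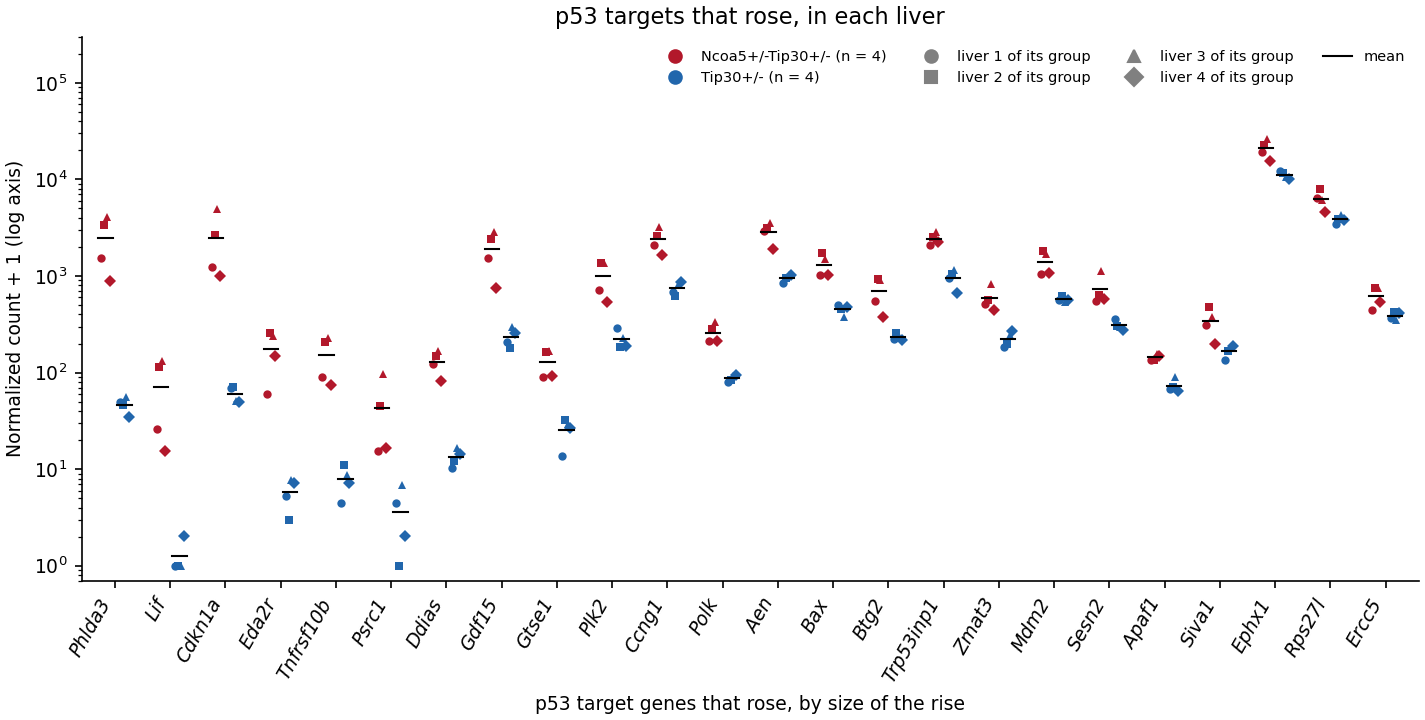
Normalized count plus 1, on a log axis, of the 24 p53 targets that rose, in each of 4 Ncoa5+/-Tip30+/- livers (red, left) and 4 Tip30+/- livers (blue, right), with the mean as a line and the marker shape giving the liver's number within its group. Every red point lies above every blue point of its gene, and Ncoa5+/-Tip30+/- livers 2 and 3 are the 2 highest for 22 of the 24 genes.

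The Ncoa5+/-Tip30+/- livers differed among themselves in the size of the rise. Livers 2 and 3 both lay above livers 1 and 4 for 22 of the 24 p53 targets that rose. Liver 3 was the highest for 17 of the 24 and liver 2 for 7, while liver 4 was the lowest for 16 and liver 1 for 8. The highest of these livers exceeded the lowest by 1.16-fold to 9.0-fold over the 24 genes. Over all 242 genes that rose, liver 2 was the highest for 116 and liver 3 for 85, and liver 4 was the lowest for 134. The genes that fell had liver 2 as the lowest for 157 of 220 and liver 4 as the highest for 115. The p53 targets that rose were 22, 17, 18 and 24 of the 24 without Ncoa5+/-Tip30+/- livers 1, 2, 3 and 4, and 20, 19, 20 and 18 without Tip30+/- livers 1, 2, 3 and 4. Members lost in these fits were among Btg2, Ercc5, Sesn2, Rps27l, Ephx1, Siva1 and Psrc1, with adjusted p values up to 0.163, the highest without Ncoa5+/-Tip30+/- 2.

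Outside the p53 lists, 7 genes stood among the 15 largest rises. Gria3, a subunit of AMPA-type glutamate receptors known from neurons, had 345, 623, 836 and 246 normalized counts in Ncoa5+/-Tip30+/- livers and 22.2, 13.1, 7.78 and 10.2 in Tip30+/- livers, a 34.4-fold rise (log2 change 5.10 ± 0.41, adjusted p = 5.71e-06). Ddit4l, which lowers mTOR signalling, had 158, 336, 349 and 87.7 in Ncoa5+/-Tip30+/- livers, against 9.38, 7.03, 14.6 and 7.17 in Tip30+/- livers, a 19.9-fold rise. Fam212b rose 18.1-fold, with 101, 153, 211 and 45.4 in Ncoa5+/-Tip30+/- livers and 5.12, 5.02, 8.75 and 3.07 in Tip30+/- livers. In these 3 genes the Ncoa5+/-Tip30+/- livers again ran in the order 3, 2, 1 and 4. Sec14l5, of a family of lipid-binding proteins, had 23.8, 80.0, 91.9 and 24.8 in Ncoa5+/-Tip30+/- livers and 1.71, 0, 1.94 and 5.12 in Tip30+/- livers (4.15 ± 0.64, adjusted p = 0.00242). Like Sec14l5, Micall2, which regulates actin and tight junctions, ran in the order 3, 2, 4 and 1, with 129, 361, 395 and 342 in Ncoa5+/-Tip30+/- livers and 48.6, 67.3, 52.5 and 54.3 in Tip30+/- livers (2.33 ± 0.32, adjusted p = 0.00100). Ckap2, a spindle protein, rose 6.86-fold (adjusted p = 0.0284) and Nrg1, a ligand of ErbB receptors, rose 5.82-fold (adjusted p = 0.0438). Ckap2 lost its call without Ncoa5+/-Tip30+/- 2 or 3 or Tip30+/- 1 or 2, and Nrg1 without any single mouse other than Ncoa5+/-Tip30+/- 4, with adjusted p up to 0.157. The other 13 of the 15 passed in every fit that left out 1 mouse.

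Other genes that rose were singled out after their values were seen. Ly6e, a membrane protein induced by interferon, had 21394, 25388, 32711 and 20757 normalized counts in Ncoa5+/-Tip30+/- livers, against 5293, 4683, 6850 and 7072 in Tip30+/- livers (log2 change 2.07 ± 0.21, adjusted p = 4.17e-05). Ces2e, a liver carboxylesterase, had 13276, 14457, 19155 and 9497 in Ncoa5+/-Tip30+/- livers and 6273, 5287, 7061 and 5594 in Tip30+/- livers (1.18 ± 0.20, adjusted p = 0.00440). Gstp1, a glutathione transferase, rose by 1.14 ± 0.26 on the log2 scale and its near-identical neighbour Gstp2 by 1.20 ± 0.22, and counts may be split between these copies. Trp53cor1, a long noncoding RNA transcribed next to Cdkn1a, had 40.5, 29.2, 28.6 and 23.7 in Ncoa5+/-Tip30+/- livers and 0, 0, 3.89 and 6.14 in Tip30+/- livers (3.67 ± 0.66, adjusted p = 0.00710).

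Several, but not all, stress, growth and immune lists held 1 to 3 genes each that rose, beside 1.58% of all genes. Nfe2l2, the regulator of the antioxidant response, had 1996, 2688, 2472 and 2047 normalized counts in Ncoa5+/-Tip30+/- livers and 1398, 1250, 1462 and 1360 in Tip30+/- livers (log2 change 0.74 ± 0.11, adjusted p = 0.00164). It was the 1 of 17 tested members of its list that passed, and the list median was -0.05. Ccnd1, a cyclin that drives entry into the cycle, had 2938, 2189, 7208 and 2234 in Ncoa5+/-Tip30+/- livers and 719, 1621, 832 and 1533 in Tip30+/- livers (1.53 ± 0.34, adjusted p = 0.0307). The groups did not overlap, and Ncoa5+/-Tip30+/- 3 stood apart at the top. Exons of Ccnd1 share 23.4% of their length with LTO1 on the opposite strand. Ccnd1 was the 1 of 26 tested cell cycle genes that passed, with a list median of 0.70, while Plk1 (1.91, adjusted p = 0.0507) and Top2a (1.46, adjusted p = 0.0552) lay near the threshold. The list of type I interferon response had a median of 0.64 and 1 of 26 tested rose, Bst2 (0.64 ± 0.17), and in 10 of the 26 the Ncoa5+/-Tip30+/- livers all lay higher, beside 7.11% of all genes. Of 23 genes of the interferon-gamma response and antigen presentation 2 rose and 10 lay higher without overlap, with a median of 0.49. Nlrc5, which activates class I genes, had 564, 752, 582 and 710 normalized counts in Ncoa5+/-Tip30+/- livers and 331, 357, 306 and 443 in Tip30+/- livers (0.86 ± 0.13, adjusted p = 0.00268), and the peptide transporter Tap1 rose by 0.72 ± 0.14 on the log2 scale. Among NF-kB genes and cytokines 3 of 16 tested rose, with a median of 0.14, the chemokine Ccl5 (1.75 ± 0.46), Relb (0.70 ± 0.18) and the adhesion molecule Icam1 (0.56 ± 0.13).

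Some markers of T and NK cells rose in Ncoa5+/-Tip30+/- livers. Cd8a, a coreceptor of cytotoxic T cells, had 40.5, 83.7, 44.2 and 29.9 normalized counts in Ncoa5+/-Tip30+/- livers and 2.56, 7.03, 6.81 and 3.07 in Tip30+/- livers, an 8.57-fold rise (adjusted p = 0.00522). On the list of T and NK cell markers 3 of 13 tested rose, beside 1.58% of all genes, Cd8a, Nkg7 (log2 change 1.18 ± 0.29) and the kinase Lck (1.15 ± 0.28), and the median was 0.74. The summed level of its 19 markers was 302 to 590 in Ncoa5+/-Tip30+/- livers, against 187 to 285 in Tip30+/- livers. The 11 neutrophil markers summed to 127 to 199 in Ncoa5+/-Tip30+/- livers and to 58.4 to 115 in Tip30+/- livers, with 0 of 3 tested passing. The sum for adipocytes and mesothelium was mostly Krt8, with means of 8950 in Ncoa5+/-Tip30+/- livers and 7987 in Tip30+/- livers. It overlapped between the groups and says little of the other markers on that list. Among these, Msln had 20.2, 84.7, 67.6 and 84.6 in Ncoa5+/-Tip30+/- livers and 36.7, 23.1, 52.5 and 14.3 in Tip30+/- livers (adjusted p = 0.357). Summed markers of B cells, macrophages, sinusoidal endothelium, cholangiocytes, stellate cells, red cells, and pancreas and gut overlapped between the groups, and no marker was at 0 in all 8 livers. In a piece of liver a larger number of such cells and more RNA per cell cannot be told apart, and the part of these markers in the interferon and chemokine values was not tested. Rspo3 (0.60 ± 0.15), a signal of endothelial cells that sustains Wnt activity, and Spp1 (0.89 ± 0.23), osteopontin, were the members of the endothelial and cholangiocyte lists that rose. Left out singly, each mouse other than Ncoa5+/-Tip30+/- 4 cost the call of 7 to 10 of the 16 named members of the other lists that rose (Ephx1 counted again), Bst2, Nkg7, Lck, Ccl5, Relb, Icam1, Rspo3, Spp1, Mdm4 and Ccnd1 among them, with adjusted p up to 0.176, and Ncoa5+/-Tip30+/- 4 cost 2, Mdm4 and Relb. Cd8a, Nlrc5, Tap1, Nfe2l2 and Mgmt passed in all 8 of these fits.

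Genes that fell were mostly at higher levels and changed less than 2-fold. Steap2, a metalloreductase, fell most among the named genes, with 48.8, 34.8, 19.9 and 73.2 normalized counts in Ncoa5+/-Tip30+/- livers and 147, 164, 134 and 79.9 in Tip30+/- livers (log2 change -1.65 ± 0.36, adjusted p = 0.0247). Fzd8, a Wnt receptor, had 1071, 705, 731 and 761 in Ncoa5+/-Tip30+/- livers, against 2157, 1922, 1518 and 1759 in Tip30+/- livers (-1.18 ± 0.25). Slc22a3, a carrier of organic cations, had 92.9, 115, 55.5 and 59.8 in Ncoa5+/-Tip30+/- livers and 163, 143, 213 and 192 in Tip30+/- livers (-1.17 ± 0.25). For Steap2 the highest Ncoa5+/-Tip30+/- liver and the lowest Tip30+/- liver lay close, and in Slc22a3 the gap between the groups was no larger than the spread within them. Colec12, a scavenger receptor, had 782, 632, 659 and 899 in Ncoa5+/-Tip30+/- livers and 1360, 1349, 1144 and 1249 in Tip30+/- livers (-0.79 ± 0.14, adjusted p = 0.00736). Chpt1, which makes phosphatidylcholine, had 1732, 1547, 1247 and 1674 in Ncoa5+/-Tip30+/- livers and 3284, 2799, 2702 and 2603 in Tip30+/- livers (-0.88 ± 0.19, adjusted p = 0.0255). B4galt5, a galactosyltransferase of glycolipid synthesis, fell by 0.88 ± 0.19 on the log2 scale. The remaining named falls were Klhl13 (-1.09), Syde2 (-1.06), Ttc7b (-0.90), Tarsl2 (-0.81), Ccdc126 (-0.81), Acsm3 (-0.79), a medium-chain acyl-CoA synthetase, and Hnf4aos (-0.92), a noncoding RNA beside the hepatocyte factor Hnf4a. No strand marking is stated, so reads of Acsm3 and Eri2 cannot be told apart where the genes overlap, over 39.7% of the exon length of Acsm3. The same holds for Slc22a3 and Plg, plasminogen, on the opposite strand over 9.31% of the exon length of Slc22a3. Plg averaged 62063 normalized counts in Ncoa5+/-Tip30+/- livers and 80926 in Tip30+/- livers, far above Slc22a3, and its part in the value of Slc22a3 was not tested.

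Of the 15 named falls, Colec12 alone passed in all 8 fits that left out 1 mouse. Without Ncoa5+/-Tip30+/- 1, 2, 3 and 4 the falls that passed were 11, 3, 4 and 14 of the 15. Without Tip30+/- 1, 2, 3 and 4 they were 4, 4, 5 and 5, and the adjusted p reached 0.166 at most, without Ncoa5+/-Tip30+/- 2. In every fit the direction stayed the same.

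**Figure D3:**
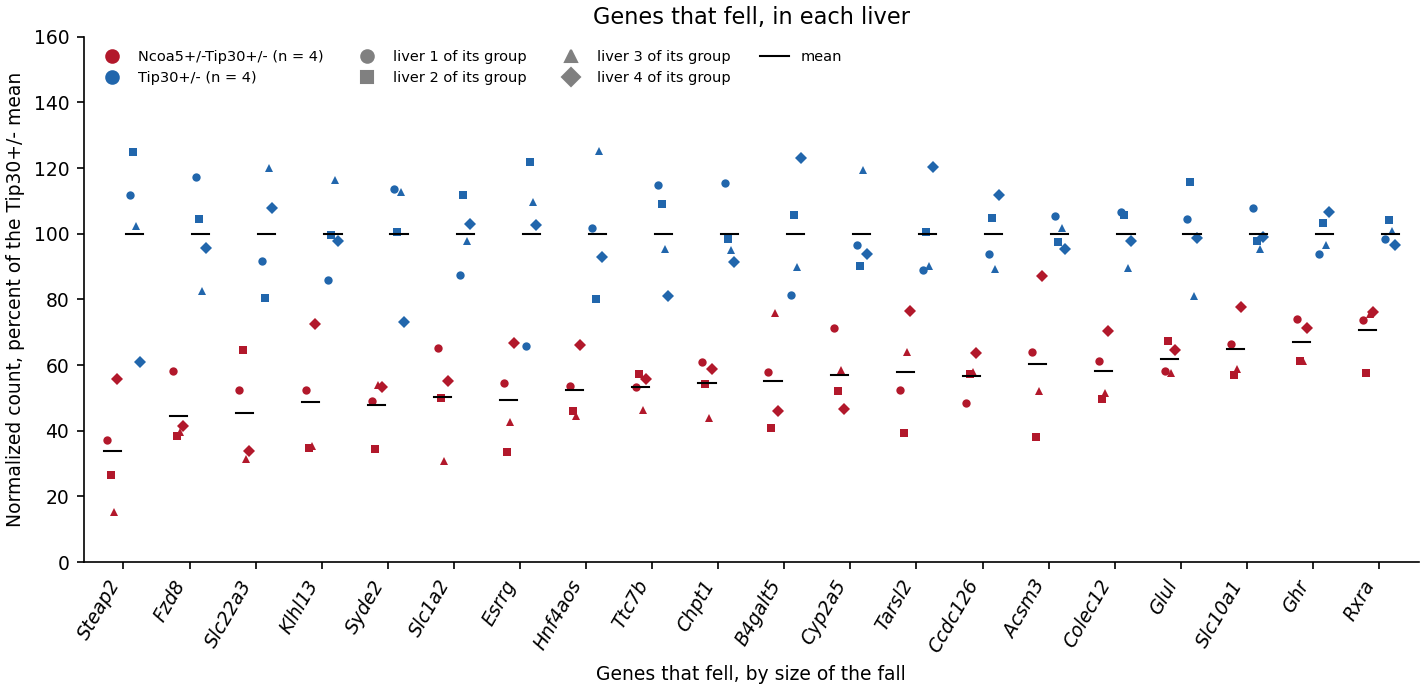
Normalized count, as a percent of the Tip30+/- mean of the gene, of 20 named genes that fell, in each of 4 Ncoa5+/-Tip30+/- livers (red, left) and 4 Tip30+/- livers (blue, right), with the mean as a line. Red points lie mostly between 25% and 75%, and the groups overlap for Esrrg alone.

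Most lists of liver metabolism had a median below that of all genes and few members past the test, beside 1.44% of all genes that fell. Among nuclear receptors 2 of 23 tested fell, with a median of -0.26. Rxra, the shared partner of many of these receptors, had 12375, 9671, 12663 and 12787 normalized counts in Ncoa5+/-Tip30+/- livers and 16531, 17475, 16919 and 16224 in Tip30+/- livers (log2 change -0.51 ± 0.10, adjusted p = 0.0117). Esrrg, an orphan receptor that favours oxidative metabolism, had 95.3, 58.3, 74.5 and 117 in Ncoa5+/-Tip30+/- livers, against 115, 213, 192 and 179 in Tip30+/- livers (-1.02 ± 0.26, adjusted p = 0.0454). Rxra passed in all 8 fits that left out 1 mouse. Slc10a1, the carrier that brings bile acids into the hepatocyte, had 11605, 9937, 10274 and 13567 in Ncoa5+/-Tip30+/- livers and 18822, 17092, 16663 and 17295 in Tip30+/- livers (-0.63 ± 0.13, adjusted p = 0.0190). It was the 1 of 20 tested genes of bile acid synthesis and transport that fell, and the list median was -0.36. Ghr, the growth hormone receptor, had 12256, 10122, 10126 and 11782 in Ncoa5+/-Tip30+/- livers and 15542, 17080, 15962 and 17624 in Tip30+/- livers (-0.58 ± 0.15, adjusted p = 0.0433), 1 of 15 on its list. The list of fatty acid and triglyceride synthesis went the other way, with a median of 0.16 and 14 of 19 members tested above 0, and its 1 member that passed was Dgat2, which completes triglycerides and fell by 0.54 ± 0.12 on the log2 scale. The circadian factor Hlf fell by 0.59 ± 0.14 (1 of 18) and Sdha of the respiratory chain by 0.47 ± 0.12 (1 of 18).

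Of 17 pericentral genes 2 fell, beside 1.44% of all genes, with a median of -0.26. Each of these calls was lost in 6 of the 8 fits that left out 1 mouse. Glul, glutamine synthetase of the innermost hepatocytes, had 13710, 15863, 13579 and 15220 normalized counts in Ncoa5+/-Tip30+/- livers, against 24618, 27345, 19133 and 23268 in Tip30+/- livers (log2 change -0.68 ± 0.16, adjusted p = 0.0286). Slc1a2, a glutamate carrier, had 2011, 1536, 945 and 1702 in Ncoa5+/-Tip30+/- livers and 2692, 3450, 3017 and 3169 in Tip30+/- livers (-1.04 ± 0.23). Of 14 periportal genes 2 fell, again beside 1.44%, with a median of -0.28, Ctsc (-0.75 ± 0.14), a lysosomal protease, and Sds (-0.70 ± 0.15), serine dehydratase, whose exons share 21.3% of their length with Plbd2 on the opposite strand. Among 20 genes of xenobiotic metabolism Cyp2a5 fell (-0.82 ± 0.20), with counts that may be split with near-identical Cyp2a4, and Ephx1, named above, rose. Without Ncoa5+/-Tip30+/- 1, 2, 3 and 4 the list members that fell outside the 15 largest falls numbered 6, 2, 3 and 11 of 11, and without Tip30+/- 1, 2, 3 and 4 they numbered 4, 2, 4 and 5. Of these 11, Rxra and Ctsc passed in all 8 fits, and the adjusted p of the others reached 0.169 at most.

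Many lists had 0 members past the test, and their values are given as medians. These were fatty acid oxidation (23 tested, median -0.23, with Acadvl at -0.53 and an adjusted p of 0.0535), gluconeogenesis and insulin signalling (16, -0.28, with Pcx at -0.49) and nuclear receptor coregulators (16, -0.18, with Ncoa2 at -0.55 and an adjusted p of 0.0724). Mitochondrially encoded genes had a median of -0.44 over 13 genes, with CYTB at -0.93 and an adjusted p of 0.0509. Female-biased liver genes had a median of -0.47 (19 tested, Sult2a2 at -0.63) and male-biased ones of -0.32 (11 tested, Cyp7b1 at -0.97). Major urinary proteins had a median of -2.22 over 11 genes. The 2 of smallest p, Mup21 (0.34, adjusted p = 0.398) and Mup20 (0.52, adjusted p = 0.415), were the 2 members above 0. Mup10, the lowest member at -2.74 and taken as an example after its values were seen, had 379, 62.1, 209 and 30.9 normalized counts in Ncoa5+/-Tip30+/- livers, against 4180, 293, 44.7 and 5682 in Tip30+/- livers, so the high values were those of Tip30+/- 1 and 4 and the groups overlapped. These genes are near-identical copies, and their counts are uncertain. Acute phase (median -0.06), unfolded protein response (-0.09), heat shock (-0.01), cytosolic ribosomal proteins (0.07), immediate early genes (0.08) and fetal liver and tumour markers (0.49) also had 0 members past the test.

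**Figure D4:**
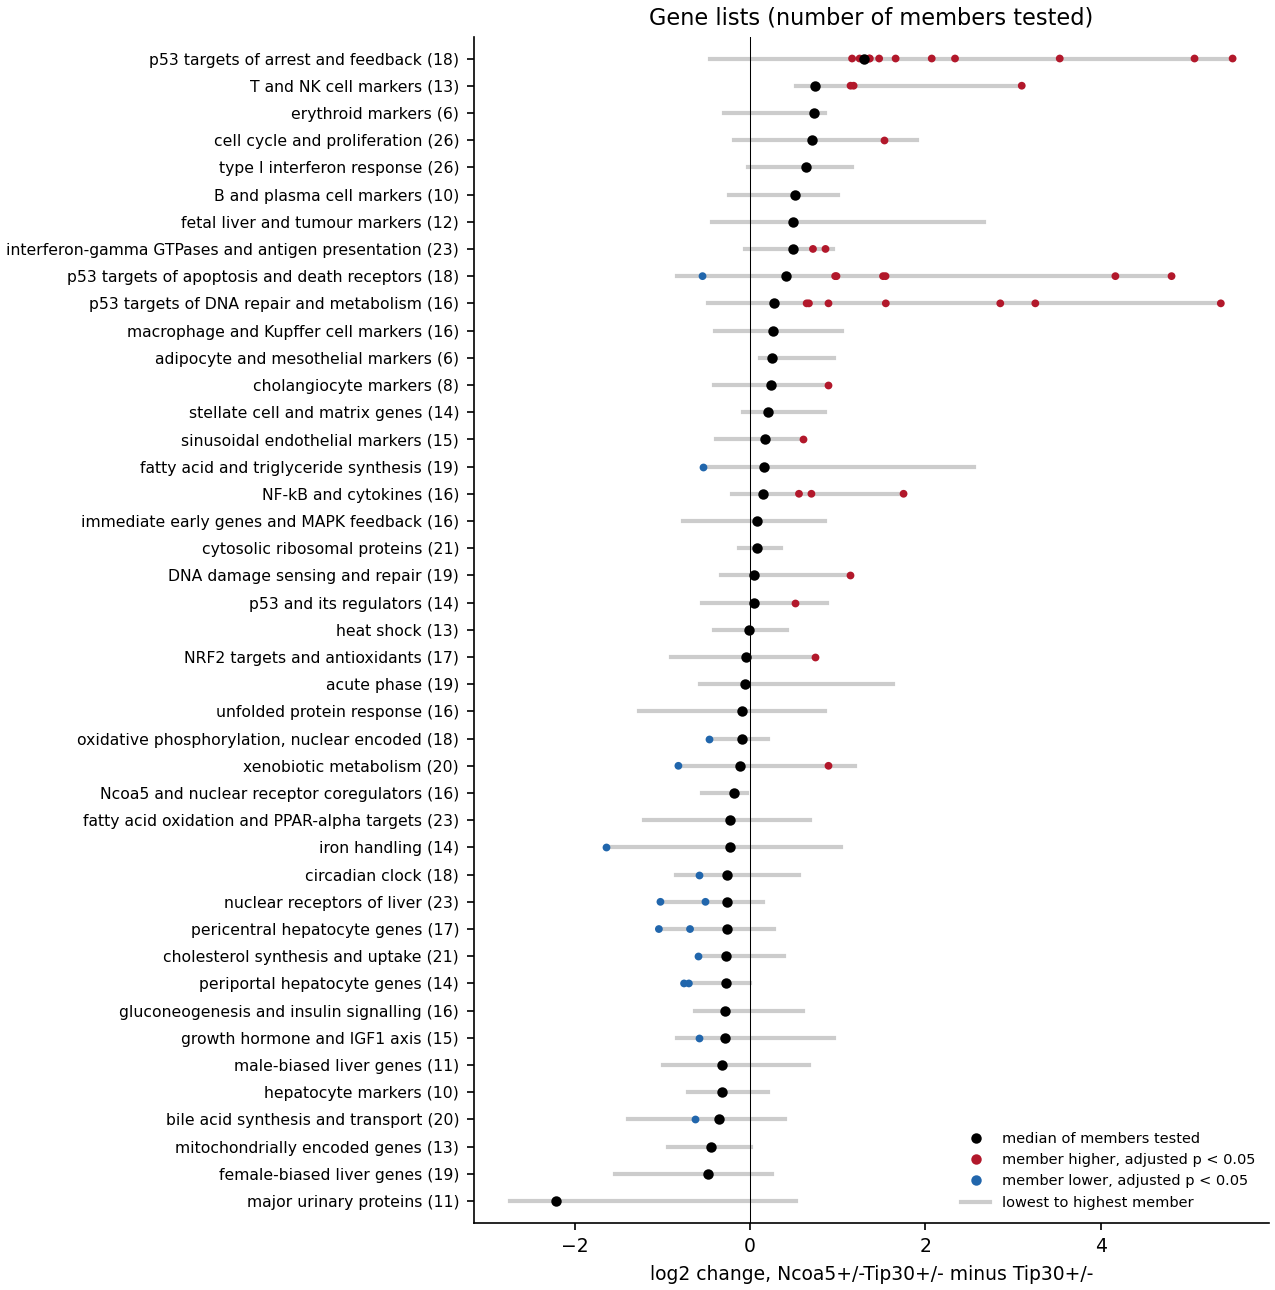
Log2 change, Ncoa5+/-Tip30+/- minus Tip30+/-, of gene lists with at least 5 members tested, the number tested standing in brackets. Black points are medians, grey bars run from the lowest to the highest member, and red and blue points are members that rose or fell, with most of the red on the 3 p53 target lists. The lists were chosen with earlier results of these data known.

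The same question of 1 Ncoa5 copy can be asked in mice with both Tip30 copies, since Ncoa5+/- and wild-type mice share no animal with the 8 above. There 84 genes passed, 0.549% of those tested, and 80 of them rose (0.523%) while 4 fell (0.0261%). Of the 242 genes that rose here, 218 (90.1%) were also higher in Ncoa5+/- than in wild-type livers, beside 66.2% of all genes higher here, and 65 passed there as well. Of the 220 that fell, 217 (98.6%) were also lower, beside 69.8% of all genes lower here, and 4 passed there. Taken from the other side, 69 of the 84 (82.1%) also passed here in the same direction. The mice differ, but both comparisons came from the same model, with a shared spread and the same SE for each gene. A gene with a small spread passes more readily in both, so the counts of shared calls are no independent repeat. This holds for the p53 targets below as well. The signs of the changes in Ncoa5+/- against wild type do not use this spread. Without the 4 livers low in Zhx2, which leaves 2 mice per group, 28 genes passed there, and 208 of the 242 and 207 of the 220 kept their direction, beside 60.9% and 66.6% of all genes. Of the 24 p53 targets that rose here, 20 also rose there, and all 24 were higher there without the livers low in Zhx2, where 8 passed.

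The change on the Tip30 heterozygous background was the larger one for 203 of the 242 genes that rose and 216 of the 220 that fell, a comparison that choosing genes by the first change favours. The median log2 change of the genes that fell was -0.56 here and -0.22 in Ncoa5+/- against wild type. Tested directly as an interaction across all genes, 0 differences passed in limma, 0.0% of genes, and 662 had an unadjusted p below 0.05, 4.32%; for the 2 groups compared here that share was 23.2%. By edgeR and by voom 0 passed, and by DESeq2 1 did, Cryaa. The interaction p of the p53 targets that passed lay between 0.0348, for Bax, and 0.983, for Gtse1. The smallest values were those of predicted or pseudogene loci, Gm44891, Gm49066, Gm3235 and Cyp21a2-ps, each with an adjusted p of 0.944. Hcn3 passed in Ncoa5+/- against wild type (log2 change 1.16, adjusted p = 0.0318) and here in 2 alternatives alone, and the interaction was -0.53 (95% interval -1.23 to 0.16). A p that misses the threshold does not show that the 2 backgrounds respond alike.

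**Figure D5:**
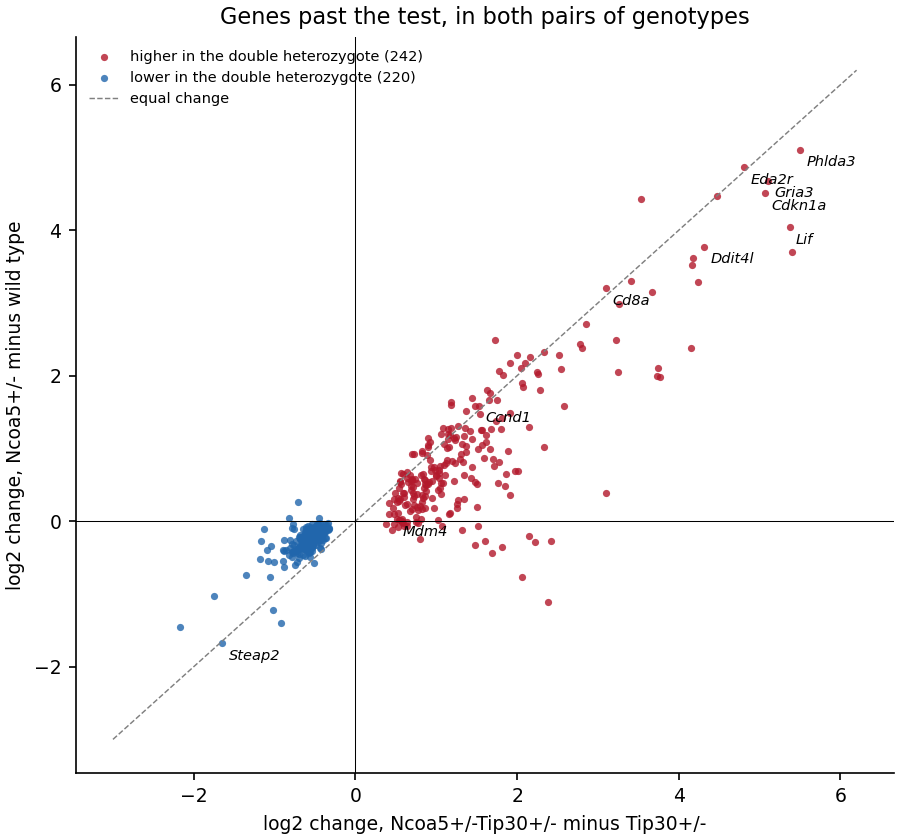
Log2 change of the 462 genes that passed, Ncoa5+/-Tip30+/- minus Tip30+/- on the horizontal axis and Ncoa5+/- minus wild type, in other mice, on the vertical axis. The genes were chosen by the horizontal value, and 218 of 242 red and 217 of 220 blue points have the same sign on both axes.

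By position, the genes that passed were spread over the genome. The share per chromosome ran from 1.56% on chromosome 6 to 4.08% on chromosome 9 of the nuclear chromosomes. Within 5 Mb of Ncoa5 on chromosome 2, 2 of 86 other genes tested passed, Hnf4aos and B4galt5, both lower. This is 2.33%, beside 3.02% of all genes that passed in either direction and 1.44% that fell. Within 10 Mb 6 of 177 passed, all lower, which is 3.39% beside the same 2 shares. The mouse tags fall into a lower range with 2 Ncoa5+/-Tip30+/- and 3 Tip30+/- mice and a range from 4300 up with 2 and 1. The direction within each range is no separate check, since the genes were chosen by this difference and the groups did not overlap in 449 of the 462. The median log2 change of those that rose was 1.18 in the lower and 1.15 in the upper range, and of those that fell -0.63 and -0.50.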

How the data were processed

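Liver mRNA of 16 female mice was enriched with oligo(dT) and sequenced, per the labels' protocols. The authors trimmed reads with Trimmomatic 0.36, used STAR 2.6.0c and GRCm38 and normalized with DESeq2 1.28.1, per the submitters' processing notes. The counting program and annotation were not given, and no strand marking is stated. The deposited table holds a signal per gene, read counts divided by a size factor per library, per the labels. Within 1e-04, every value equalled a whole number of reads times the worth of 1 read in its library, so reads were recovered for the alternatives and for depth. No 2 libraries were copies of each other. Of 30199 genes, 18821 carry a symbol in the table, a further 11328 took their name from the reference gene list, and 50 have an identifier alone. Positions and exon overlaps come from GENCODE M21.

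Genes averaging 10 or more over the 8 libraries were tested with limma 3.58.1 (trend and robust, 2-sided) on log2 of the value plus 1, in 1 model of 4 group means over 16 libraries, so the other 8 mice add to the spread. Adjusted p values are Benjamini-Hochberg values over all 15307 genes in this limma fit, and "rose" and "fell" mean an adjusted p below 0.05. Folds are powers of 2 of the log2 change, which understates changes of low genes, and ± is the SE on the log2 scale unless named SD. The interaction is the Ncoa5+/-Tip30+/- minus Tip30+/- change minus the Ncoa5+/- minus wild-type change. Numbers 1 to 4 only name the mice, and values of a group are given in that order. The mice, not the reads, are the replicates, so the spread includes differences between animals. Named genes were, among genes that passed without overlap, with a higher group mean of 50 or more and no predicted-gene name, those 15 that rose most and those 15 that fell most, and from each list up to 4 members that passed or else 2 as values, plus Ncoa5, Htatip2 and Hcn3. Every p53 list member that passed is also given. Genes named outside this rule are marked as such. The members and the 46 gene lists were chosen with earlier results of these data known, so list counts are descriptions. Alternatives were 3 count models (DESeq2 1.42.0, edgeR 4.0.16, limma-voom) fitted to recovered reads, a pseudocount of 0.5 or 5, a filter at 50 or none, TMM and upper-quartile scaling, moderation that is not robust, the 2 groups alone, a mouse tag covariate (below 4300 or not), each of the 8 mice left out and, chosen after seeing the data, leaving out 4 livers low in Zhx2. The chain was tested on simulated data.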

Additional observations from a re-analysis of the deposited data

Results flagged for a closer look

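Among 107 named genes, 8 of 214 groups of 4 livers had 1 liver whose gap to the nearest other was above Dixon's 95% critical value as a share of the group's range, where chance alone flags about 1 group in 20. Among Ncoa5+/-Tip30+/- livers, Ccnd1 was far higher in liver 3 (7208 normalized counts, against 2189 to 2938 in the others, a gap of 0.851 of the range), Col1a1 was higher in liver 2 (463, against 355 to 367, 0.883), Fzd8 was higher in liver 1 (1071, against 705 to 761, 0.846) and Rxra was lower in liver 2 (9671, against 12375 to 12787, 0.868). Among Tip30+/- livers, Vil1 was higher in liver 3 (34.0, against 6.03 to 8.19, 0.923), Jund was higher in liver 4 (652, against 403 to 445, 0.833), Ncoa4 was lower in liver 1 (3384, against 3792 to 3876, 0.8292) and Lif was listed at 1.02 in liver 4 and at 0 in the others, a gap of 1 of the range that rests on 1 read.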

How the results depend on the processing

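The count of 462 genes, 242 higher and 220 lower, was 1135 (579 higher, 556 lower) by DESeq2 and 1339 (509 higher, 830 lower) with the mouse tag covariate. The lower genes were 138 by edgeR, 143 with no filter and 110 under upper-quartile scaling. Leaving out 1 mouse gave 107 to 761 genes, 82 to 304 higher and 25 to 457 lower. Without the 4 livers low in Zhx2 412 genes passed. The share that was higher, 52.4% in the main result, was 65.7% by edgeR, 62.2% by voom and 62.1% with no filter. It was 43.1% with a filter at 50, 39.95% without Ncoa5+/-Tip30+/- 4 and 76.6% without Ncoa5+/-Tip30+/- 2. The p53 targets that rose, 24, stayed between 17 and 24 in all alternatives. Genes passing in Ncoa5+/- against wild type, 84, were 252 by DESeq2 and 28 without the livers low in Zhx2, and the interaction, 0, was 1 by DESeq2. The log2 change of Ncoa5 reversed to 0.03 under upper-quartile scaling (adjusted p = 0.894), a scaling that moves the median of all genes by 0.0905. Of 61 named genes that passed, 24 passed under every alternative. Of 2308 values of named genes under alternatives, 259 lost and 44 gained a call and 1 reversed. The causes were not tested. No paired analysis was possible because the labels give no replicate numbers shared between the groups. With 4 mice per group, genes that changed by little can be missed, and the recovered reads carry counting error that weighs most on genes near the limit of 10.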

Other observations

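Further genes, singled out after their values were seen, describe biology outside the lists. Gm42047, Gm43549, Gm47939 and Gm47761, long intergenic noncoding RNA genes on chromosomes 8, 3, 10 and 10, rose with a like pattern over the livers. Gm42047 had 6959, 8513, 19429 and 4729 normalized counts in Ncoa5+/-Tip30+/- livers and 906, 620, 269 and 1029 in Tip30+/- livers (log2 change 3.77 ± 0.62, adjusted p = 0.00842). Gm43549 had 337, 494, 887 and 231 in Ncoa5+/-Tip30+/- livers and 27.3, 33.1, 16.5 and 61.4 in Tip30+/- livers. Gm47939 rose by 3.73 ± 0.54 and Gm47761 by 3.25 ± 0.59 on the log2 scale. All 4 were highest in Ncoa5+/-Tip30+/- 3 and lowest in Tip30+/- 3. Whether these loci share reads was not tested. Amh, the anti-Müllerian hormone, rose at a low level, with 32.2, 55.5, 77.1 and 28.9 in Ncoa5+/-Tip30+/- livers and 4.26, 8.04, 4.86 and 11.3 in Tip30+/- livers (2.58 ± 0.46, adjusted p = 0.00699). Mpped2 and Ranbp3l, low genes that the level limit kept out of the named falls, fell by 2.17 ± 0.52 and 1.75 ± 0.36 on the log2 scale.

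Some large differences did not pass, and the livers of a group differed widely in them. Sult2a7, a sulfotransferase, had 1046, 1709, 2597 and 554 normalized counts in Ncoa5+/-Tip30+/- livers and 29.0, 43.2, 42.8 and 33.8 in Tip30+/- livers, without overlap, and its log2 difference of 5.07 ± 1.26 had an adjusted p of 0.0502. In Ncoa5+/- livers it had 46.2, 1054, 882 and 12.7, and the low values are those of the livers low in Zhx2. Dmbt1, a mucosal glycoprotein, had 16085 in Tip30+/- 3, 4.26, 33.1 and 188 in the other Tip30+/- livers, and at most 5.20 in the Ncoa5+/-Tip30+/- livers. The same Tip30+/- liver had 305 of Adgrg7, against 0 to 8.04 in the other Tip30+/- livers. Klf8 stood at 225 in Tip30+/- 1 and at 0 in all Ncoa5+/-Tip30+/- livers. Chrna4 (3040, 6481, 1190 and 462 in Ncoa5+/-Tip30+/- livers, 223, 49.2, 674 and 359 in Tip30+/- livers) and Pnpla3 (1961, 2474, 1325 and 371 in Ncoa5+/-Tip30+/- livers, 234, 60.3, 400 and 348 in Tip30+/- livers) were each highest in Ncoa5+/-Tip30+/- 2.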
